A study of Homo sapiens with 12 samples.

Results

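The genes described here are 8 genes best known from neurons that were expressed, and differed with MUC1 silencing, in at least 1 of 2 breast cancer lines: MAP2, NBEA, ADGRL3, NEGR1, GABBR2, SORT1, SCG2 and GAL. They are 8 of the 57992 genes in the deposited count table, each matched to 1 Ensembl identifier by symbol. They were picked from the silencing comparisons themselves, so their differences between silenced and control cells are given as descriptions, with no p-value. Their difference between the lines without silencing was not itself used to pick them and is given with p-values. Its control libraries are also the control arms of the picking comparisons, so those p-values are not independent of the picking.

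RNA was sequenced from BT-549 and SUM149, both established lines of triple-negative breast cancer. That class is defined by negative clinical tests for estrogen receptor, progesterone receptor and HER2, not by absence of their RNA. Cells of each line had been stably transfected with a control hairpin (CshRNA) or with a short hairpin RNA directed at MUC1-C (MUC1shRNA), which lowers the transcript of the transmembrane mucin MUC1. Each of the 4 groups had 3 libraries, numbered 1 to 3. The BT-549 controls are CshRNA in their titles and "vector" in their descriptions. The lines were grown in different media, and only the SUM149 medium held hydrocortisone and HEPES. The labels name no clones and do not say whether the 3 sets of a group were transfected separately, so each p-value reflects the spread among these libraries alone.

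Neurons use these proteins in distinct compartments. MAP2 binds and stabilises the microtubules of dendrites, and NBEA (neurobeachin) is a BEACH-domain scaffold that anchors protein kinase A and sorts membrane proteins towards synapses. ADGRL3 (latrophilin 3) is an adhesion G-protein-coupled receptor that binds FLRT and teneurin proteins across the synapse, and NEGR1 is a GPI-anchored immunoglobulin adhesion protein of the IgLON family. GABBR2 is the subunit of the GABA-B receptor that couples to G proteins, and its partner GABBR1 binds GABA. SORT1 (sortilin) is a sorting receptor for neurotrophin precursors and progranulin, SCG2 (secretogranin II) is a granin of dense-core secretory granules, and GAL encodes the neuropeptide galanin. Neuronal genes of this kind are often silenced outside the nervous system by the repressor REST, which acts through RCOR and SIN3 corepressors.

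MUC1 itself was at 51.9, 53.7 and 54.3 CPM in the BT-549 CshRNA libraries and at 3.60, 6.02 and 4.28 CPM in the MUC1shRNA libraries. In SUM149 it was at 16.4, 16.6 and 12.1 CPM with CshRNA and at 1.06, 0.334 and 0.482 CPM with MUC1shRNA. CPM gives a gene's counts relative to the TMM-scaled total of its library. All 6 silenced libraries lay below the controls of their line, as their labels say. Library totals ran from 7931614 to 24140623 counts, and the SUM149 control group was 2.44 times as deep as its silenced group. On the second principal component of BT-549 (16.8% of the variance), CshRNA 3 and MUC1shRNA 2 lay away from the remaining 4, and on that of SUM149 (17.2%) CshRNA 3 lay away from the remaining 5. Leaving out any 1 library, or both of these BT-549 libraries, changed no direction among the 8 genes fitted in BT-549 and the 6 fitted in SUM149 except that of GAL in SUM149, whose log2 difference moved from -0.03 to 0.25 without CshRNA 3.

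The cells expressed only part of a set of neuron markers. Of 13 neuron-defining genes, 6 reached a mean of 1 CPM in each BT-549 group and 5 in each SUM149 group, and ELAVL4 had 0 counts in all 4 groups. RBFOX3, DCX and NEFM, which also define neurons, stayed below 1 CPM on average in every group. The summed level of the 13 markers ran from 52.4 to 61.5 CPM in BT-549 CshRNA libraries, from 47.7 to 52.7 CPM in BT-549 MUC1shRNA, from 51.3 to 57.4 CPM in SUM149 CshRNA and from 75.1 to 79.3 CPM in SUM149 MUC1shRNA. The marker with the highest level in each group was INA, an intermediate filament protein of neurons. Of 6 neuroendocrine markers, 3 reached 1 CPM in each BT-549 group and 2 in each SUM149 group. NCAM1 was at 185 and 193 CPM in BT-549 control and silenced cells, SYP at 7.67 and 9.33 CPM in BT-549 and 2.77 and 4.60 CPM in SUM149, and CHGA had 0 counts in all 12 libraries. The summed level of 5 mesenchymal markers was 4422 to 5077 CPM with CshRNA and 5420 to 6524 CPM with MUC1shRNA in BT-549, and 817 to 916 CPM and 3032 to 3409 CPM in SUM149. In SUM149 that sum followed FN1, with means of 767 and 3103 CPM, while VIM was at 31.4 and 32.3 CPM and CDH2 at 50.9 and 52.6 CPM. In BT-549 FN1 was at 1707 and 2204 CPM and SPARC at 1333 and 2090 CPM, while VIM was at 1518 and 1558 CPM. The summed level of 8 epithelial markers was 329 to 383 CPM with CshRNA and 808 to 1047 CPM with MUC1shRNA in BT-549, and 2013 to 2049 CPM and 1931 to 2026 CPM in SUM149. In BT-549 the sum followed KRT8, at 44.5 and 282 CPM, and KRT18, at 290 and 655 CPM, while EPCAM was at 0.287 and 0.0368 CPM. In SUM149 KRT5 was at 274 and 136 CPM and KRT17 at 25.2 and 36.8 CPM. Of the receptor genes, ERBB2, which encodes HER2, was at 48.5 and 46.5 CPM in BT-549 and 58.6 and 36.6 CPM in SUM149. ESR1 was at 2.32 and 4.88 CPM in SUM149 and below 1 CPM in BT-549, and PGR was below 1 CPM in every group. The part of these markers in the results was not tested. In bulk RNA of this kind, fewer cells that express a gene and less of its RNA per cell cannot be told apart.

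In silenced BT-549 cells 6 of the 8 genes were higher and 2 were lower than in their controls, and in silenced SUM149 cells 3 were higher and 2 were lower. NEGR1, SORT1 and SCG2 were higher with MUC1shRNA in both lines. MAP2 and NBEA went opposite ways, up in BT-549 and down in SUM149. ADGRL3, GABBR2 and GAL differed in BT-549, and in SUM149 the first 2 were almost or wholly uncounted and GAL differed little. All 8 genes were past edgeR's test in BT-549, where 33.3% of 13200 tested genes were (16.8% higher and 16.5% lower), and the libraries of the groups did not overlap for 8 of them, as for 47.0% of all tested genes. In SUM149 6 genes could be tested and 5 were past the test, against 56.5% of 14178 genes (27.6% higher and 28.9% lower), and 5 had groups without overlap, against 62.6% of all tested genes. The difference of responses between the lines was past the threshold for 6 of the 8, 3 of them higher in BT-549 and 3 lower, against 39.6% of 15649 genes (19.5% higher and 20.1% lower). NEGR1, 1 of the 6, was not past it in 11 of 20 alternatives, the replicate block among them. These counts follow from how the genes were picked and nothing is read from them.

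**Figure D1:**
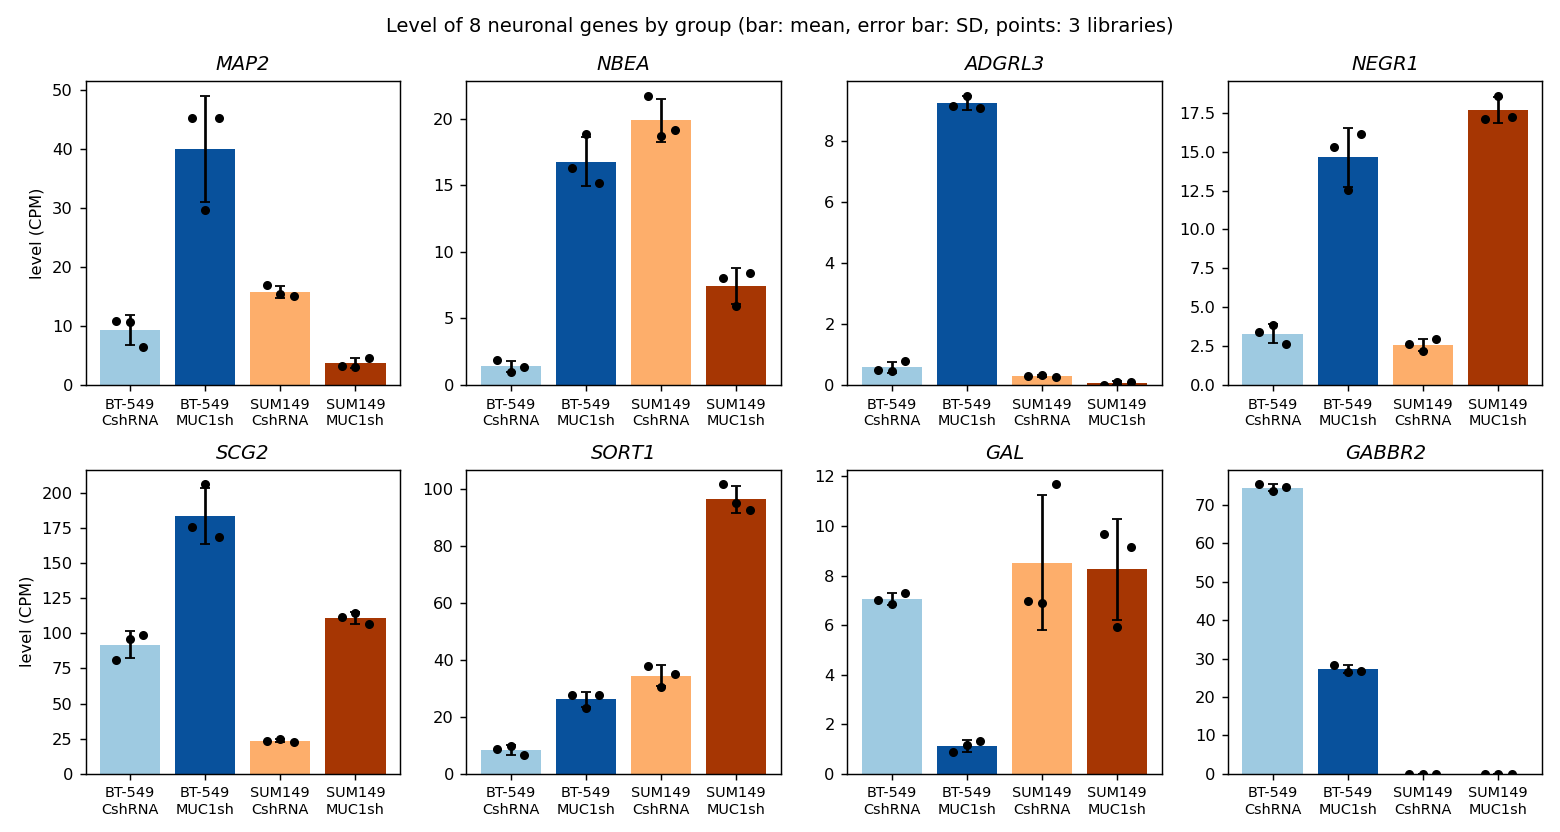
Level in CPM (vertical axis, linear from 0, own scale in each panel) of the 8 genes in the 4 groups, with bars at the mean, error bars of 1 SD and points for the 3 libraries of each group. MAP2 and NBEA stand higher with MUC1shRNA in BT-549 and lower with it in SUM149, while GABBR2 is at 0 CPM in all 6 SUM149 libraries.

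MAP2 (ENSG00000078018.19, chromosome 2, 209424058 to 209734118, plus strand, GRCh38) was at 10.9, 10.7 and 6.47 CPM in BT-549 CshRNA libraries and at 45.3, 29.7 and 45.1 CPM in BT-549 MUC1shRNA libraries. In SUM149 it was at 17.0, 15.4 and 15.1 CPM with CshRNA and at 3.30, 3.12 and 4.63 CPM with MUC1shRNA. The groups did not overlap in either line, and the 4 groups stood in the order BT-549 silenced, SUM149 control, BT-549 control and SUM149 silenced, with no overlap between neighbours. The lowest BT-549 value of each group came from CshRNA 3 and MUC1shRNA 2, the libraries that stood apart. MAP2 was thus 4.31-fold higher with MUC1shRNA in BT-549 (log2 difference 2.11, SE 0.21) and 4.22-fold lower in SUM149 (log2 difference -2.08, SE 0.16). Without those 2 BT-549 libraries the log2 difference was 2.07. MAP2 thus moved by similar amounts in opposite directions, and the log2 responses differed by 4.19 (SE 0.31) between the lines.

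NBEA (ENSG00000172915.18, chromosome 13, 34942287 to 35673022, plus strand) was low in BT-549 control cells, at 1.85, 0.995 and 1.36 CPM, and stood at 16.3, 18.8 and 15.2 CPM with MUC1shRNA. In SUM149 it was at 21.7, 18.7 and 19.2 CPM with CshRNA and at 8.02, 5.91 and 8.39 CPM with MUC1shRNA. Silenced BT-549 cells thus overlapped with SUM149 control cells, and no other neighbouring groups overlapped. NBEA was 11.8-fold higher in silenced BT-549 cells (log2 difference 3.56, SE 0.18), the 20th highest difference of 13200 tested genes, and 2.64-fold lower in silenced SUM149 cells (log2 difference -1.40, SE 0.13). The log2 responses differed by 4.97 (SE 0.24) between the lines. Of its exon bases, 0.745% lie opposite MAB21L1, a gene inside an NBEA intron.

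The sequence before a start site is shown for MAP2 and NBEA, which moved in opposite directions in the lines, and for GABBR2. It is that of the reference genome, not of these lines, and its part in differences between them was not tested. The promoter table, from RefSeq on GRCh38.p14, held windows for 5 of the 8 genes (MAP2, NBEA, ADGRL3, GABBR2 and SORT1) with 10 start sites in all. The MAP2 window shown is 1 of several for that gene. All of them lie inside the gene, whose annotated first base is 209424058, so none is the sequence before its outermost start. The GABBR2 window also lies inside its annotated gene, which is on the minus strand and begins at 98709197. Each line below gives the 250 bases upstream of 1 start site, 5′ to 3′ on the strand of the gene, at chr2:209579357-209579606, chr13:34942020-34942269 and chr9:98708936-98709185. Capitals mark the GC box GGGCGG or its complement CCGCCC, the letters that SP-family factors are known to bind.
MAP2: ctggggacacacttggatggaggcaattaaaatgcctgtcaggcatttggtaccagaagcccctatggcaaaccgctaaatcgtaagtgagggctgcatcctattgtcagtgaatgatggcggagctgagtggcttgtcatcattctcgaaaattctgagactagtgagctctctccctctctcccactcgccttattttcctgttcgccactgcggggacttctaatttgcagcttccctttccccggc
NBEA: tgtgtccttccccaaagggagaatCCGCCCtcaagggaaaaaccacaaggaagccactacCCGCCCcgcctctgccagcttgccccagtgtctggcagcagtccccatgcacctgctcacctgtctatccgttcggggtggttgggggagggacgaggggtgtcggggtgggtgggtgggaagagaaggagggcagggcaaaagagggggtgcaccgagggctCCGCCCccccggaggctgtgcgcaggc
GABBR2: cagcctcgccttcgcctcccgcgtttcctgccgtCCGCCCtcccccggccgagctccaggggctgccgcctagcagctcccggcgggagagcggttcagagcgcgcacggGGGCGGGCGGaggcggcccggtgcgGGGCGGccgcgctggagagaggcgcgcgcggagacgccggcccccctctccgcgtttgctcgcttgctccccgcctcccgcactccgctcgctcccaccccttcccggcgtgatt
The MAP2 window held no GC box, the NBEA window 3 and the GABBR2 window 4, of which 1 pair shares bases, at 140 and 136 bases before the start. The GC box was in 6 of the 10 windows and in 42.6% of all 35116 windows of the same length. The GABBR2 window held 38 CpG dinucleotides, more than 96.7% of all windows, where the median was 11. The MAP2 and NBEA windows held 8 and 11. Also searched, on both strands, were the left and right parts of the REST element, TTCAGCACC (0.288% of all windows) and GGACAGC (4.76%), the CREB element TGACGTCA (1.65%), AP-1 TGANTCA (6.57%), the E-box CACGTG (6.34%) and an NF-kB element (1.73%), and none was in the 10 windows. The short CREB element TGACG (21.2%), which the full element contains, and TATAAA (10.7%) were each in 1 window, that of an NBEA start site inside the gene. Gene counts do not tell which start site was used.

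ADGRL3 (ENSG00000150471.16, chromosome 4, 61201258 to 62078335, plus strand) was low in BT-549 control cells, at 0.504, 0.464 and 0.783 CPM, and at 9.16, 9.50 and 9.10 CPM with MUC1shRNA. The silenced libraries stood close together and far above the controls. It was 15.4-fold higher in silenced BT-549 cells (log2 difference 3.94, SE 0.19), the 13th highest difference of 13200. In SUM149 the receptor stayed near 0, with 21 counts over the 3 CshRNA libraries and 2 over the MUC1shRNA libraries. That is too few for the test, and CshRNA over MUC1shRNA gave a ratio of 4.23 with an exact 95% interval of 1.03 to 37.2 for counting error only. Of its exon bases, 1.09% lie opposite ADGRL3-AS1.

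NEGR1 (ENSG00000172260.14, chromosome 1, 71395940 to 72282734, minus strand) was low in control cells of both lines and higher in silenced cells of both. Its levels in BT-549 were 3.42, 3.85 and 2.66 CPM with CshRNA and 15.3, 12.5 and 16.1 CPM with MUC1shRNA. In SUM149 they were 2.61, 2.18 and 2.97 CPM with CshRNA and 17.1, 18.6 and 17.3 CPM with MUC1shRNA. The control groups of the lines overlapped, and the silenced libraries lay above every control library of either line. NEGR1 was 4.44-fold higher in BT-549 (log2 difference 2.15, SE 0.16) and 6.87-fold higher in SUM149 (log2 difference 2.78, SE 0.15). Of its exon bases, 4.71% lie opposite ZRANB2-AS2, and the strand setting of the counting is not given.

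GABBR2 (ENSG00000136928.6, chromosome 9, 98288082 to 98709197, minus strand) was lower in silenced BT-549 cells. Its levels were 75.4, 73.7 and 74.6 CPM with CshRNA and 28.4, 26.6 and 26.7 CPM with MUC1shRNA, with little spread within a group. The silenced level was 2.74-fold lower (log2 difference -1.46, SE 0.06). In SUM149 all 6 libraries had 0 counts, which allows up to 0.0434 CPM in the CshRNA group and 0.108 CPM in the MUC1shRNA group at 3 counts over the 3 libraries of a group. Of its exon bases, 1.24% lie opposite the pseudogene SEPT7P7.

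SORT1 (ENSG00000134243.11, chromosome 1, 109309568 to 109397951, minus strand) was higher with MUC1shRNA by similar factors in both lines from different starting levels. It was at 8.74, 9.82 and 6.53 CPM in BT-549 CshRNA libraries and at 27.6, 23.0 and 27.8 CPM in MUC1shRNA libraries. In SUM149 it was at 38.0, 30.5 and 35.0 CPM with CshRNA and at 102, 95.0 and 92.7 CPM with MUC1shRNA. None of the 4 groups overlapped, and control SUM149 cells held more SORT1 than silenced BT-549 cells. The level was 3.14-fold higher in BT-549 (log2 difference 1.65, SE 0.14) and 2.81-fold higher in SUM149 (log2 difference 1.49, SE 0.08), and the log2 responses differed by 0.17 (SE 0.17).

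SCG2 (ENSG00000171951.4, chromosome 2, 223596940 to 223602503, minus strand) had the highest level per kilobase of exon of the 8 genes in all 4 groups, with means of 33.8, 67.5, 8.63 and 40.8 CPM per kilobase in BT-549 CshRNA, BT-549 MUC1shRNA, SUM149 CshRNA and SUM149 MUC1shRNA. On that scale it stood above 95.6% of tested genes in silenced BT-549 cells and above 93.5% in silenced SUM149 cells. By library it was at 80.8, 96.3 and 98.9 CPM with CshRNA and at 176, 206 and 169 CPM with MUC1shRNA in BT-549. In SUM149 it was at 23.6, 24.5 and 22.3 CPM with CshRNA and at 112, 115 and 107 CPM with MUC1shRNA. No groups overlapped, and the silenced SUM149 libraries lay above the BT-549 controls. SCG2 was 1.99-fold higher in BT-549 (log2 difference 0.99, SE 0.10) and 4.77-fold higher in SUM149 (log2 difference 2.25, SE 0.07).

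GAL (ENSG00000069482.6, chromosome 11, 68683779 to 68691175, plus strand) was lower with MUC1shRNA in BT-549, at 7.00, 6.83 and 7.31 CPM in controls and 0.875, 1.18 and 1.34 CPM in silenced libraries. The difference was 6.31-fold (log2 difference -2.66, SE 0.18), the 14th lowest of 13200 tested genes. In SUM149 the groups overlapped, at 6.98, 6.90 and 11.7 CPM with CshRNA and 9.67, 5.91 and 9.16 CPM with MUC1shRNA, and the log2 difference was -0.03 (SE 0.22). The highest of these 6 values came from CshRNA 3, the SUM149 library that stood apart. The neuropeptide thus stood at like levels in BT-549 controls and both SUM149 groups, whose ranges overlapped in neighbouring pairs.

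**Figure D2:**
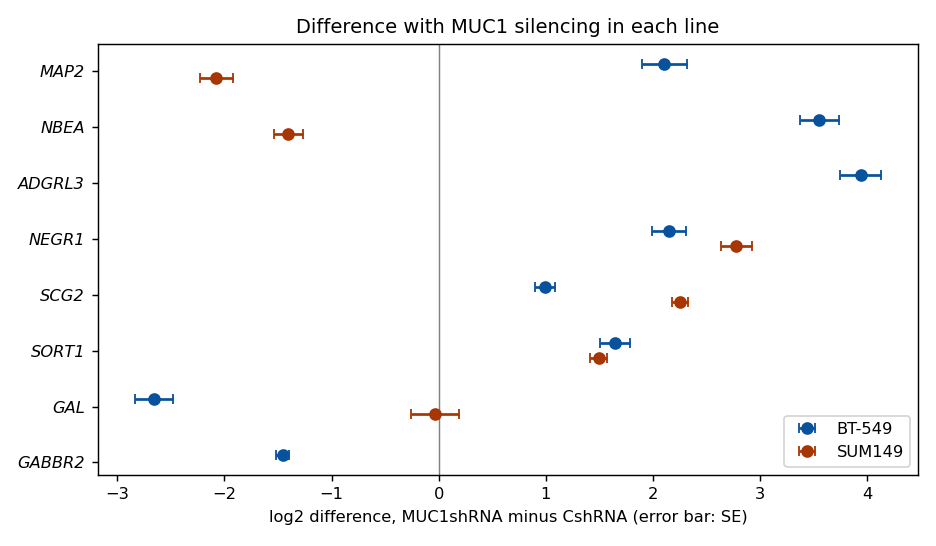
Log2 difference between MUC1shRNA and CshRNA (horizontal axis, error bars of 1 SE) for the 8 genes in BT-549 and SUM149. NEGR1, SORT1 and SCG2 lie above 0 in both lines and MAP2 and NBEA on opposite sides of it; ADGRL3 and GABBR2 have no SUM149 point because their counts there were too low.

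The lines were also compared without silencing, where line and growth medium cannot be told apart. That comparison was not itself used to pick the genes. Its libraries were, as control arms of the silencing comparisons, so its p-values are not independent of the picking. By edgeR over all 12 libraries, 6 of the 8 genes differed between BT-549 and SUM149 controls, 3 higher and 3 lower in BT-549, where 83.0% of 15649 tested genes differed (39.5% higher and 43.5% lower in BT-549). Non-overlap of the control libraries, found for 6 of the 8 genes, was found for 84.0% of tested genes. Both shares of the 8 genes were near those of all tested genes, so nothing is read from them. GABBR2 had to be among the 6 because it was tested only through its BT-549 counts. NBEA was lower in BT-549 by a log2 difference of -3.80 (SE 0.18, edgeR adjusted p = 2.4e-11) and SORT1 by -2.06 (SE 0.13, edgeR adjusted p = 6.4e-10). MAP2 was lower by -0.77 (SE 0.19, edgeR adjusted p = 0.0017).

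SCG2 was higher in BT-549 controls by 1.97 (SE 0.09, edgeR adjusted p = 1.9e-11). GABBR2, at 0 counts in SUM149, was at least 1720-fold higher in BT-549 controls, taking 3 counts over the 3 SUM149 libraries as the limit, and is given no p-value. ADGRL3 had only 31 counts over the 3 BT-549 control libraries and 21 over those of SUM149. It was tested only through its counts in silenced BT-549 cells, so it is given no p-value either. The fitted difference was 0.95 (SE 0.32), and its call was lost without BT-549 CshRNA 3, at 0.67. NEGR1 did not pass, at 0.34 (SE 0.17, edgeR adjusted p = 0.080), but passed without BT-549 CshRNA 3 (edgeR adjusted p = 0.0214) or without SUM149 CshRNA 3 (edgeR adjusted p = 0.0455). GAL did not pass either, at -0.27 (SE 0.21, edgeR adjusted p = 0.24), and stood at 0.02 without SUM149 CshRNA 3.

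Next, 11 lists of 300 genes around the roles of the 8, which were themselves left out, were counted in the same fits. In BT-549, 159 of them were tested, 38 rose and 34 fell, so 45.3% changed against 33.3% of all tested genes, and their median log2 difference was 0.03 against -0.01 for all tested genes. In SUM149, 162 were tested, 47 rose and 49 fell, so 59.3% changed against 56.5% of all tested genes, with a median of -0.09 against -0.03. The lists were drawn up with earlier results of these data known.

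**Figure D3:**
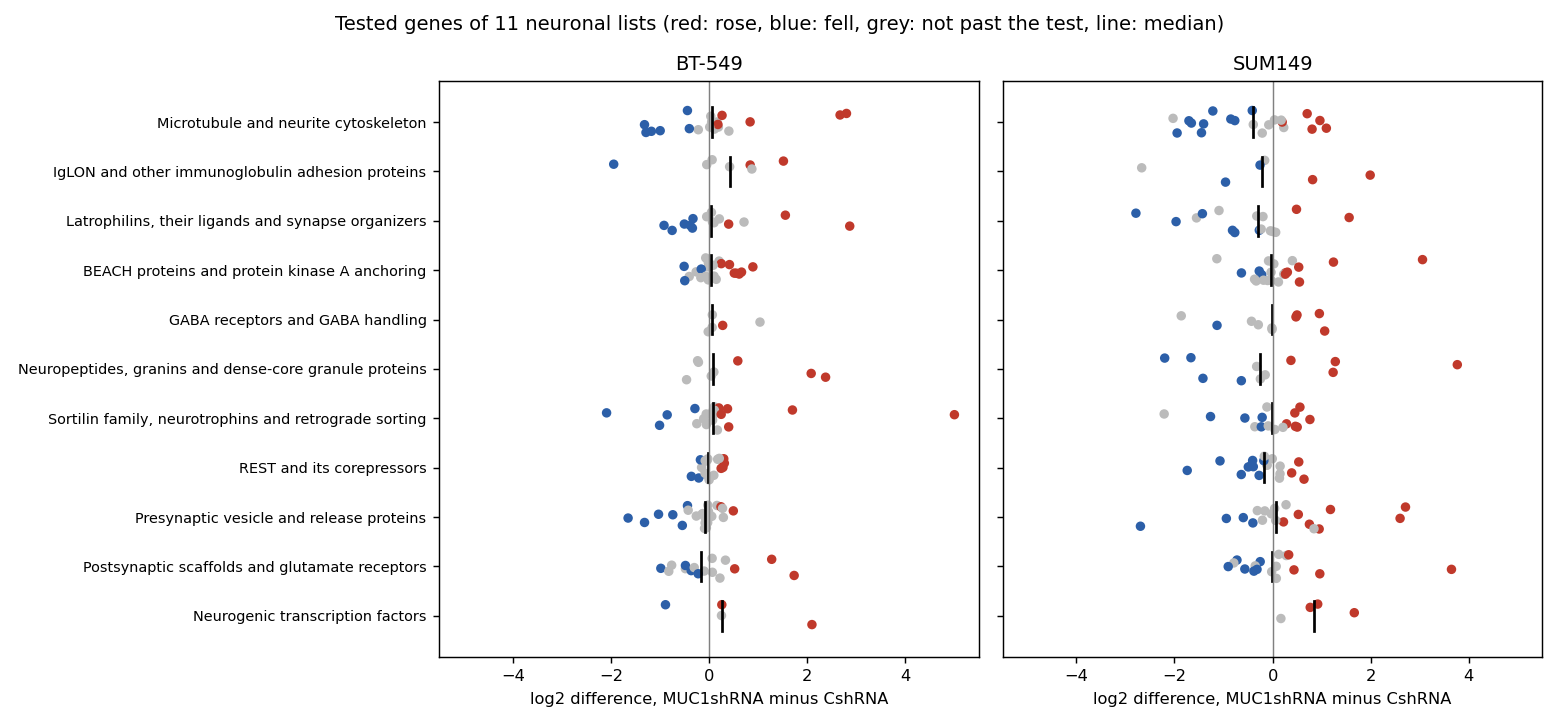
Log2 difference between MUC1shRNA and CshRNA (horizontal axis) of each tested gene of the 11 lists in BT-549 (left) and SUM149 (right), with red points for genes that rose, blue for genes that fell, grey for genes not past the test and a black line at the list median. Most lists hold genes on both sides of 0 in both lines.

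Around MAP2, the microtubule and neurite cytoskeleton list had 20 of 32 genes tested in BT-549, with 5 that rose, 6 that fell and a median of 0.06, and 21 tested in SUM149, with 5 that rose, 9 that fell and a median of -0.39. MAP1B, a MAP of growing axons, fell in both lines, from 161 to 66.1 CPM in BT-549 (log2 difference -1.29, SE 0.13, edgeR adjusted p = 1.2e-04) and from 35.0 to 10.6 CPM in SUM149 (-1.71, SE 0.12, edgeR adjusted p = 7.7e-08). DPYSL3, a CRMP-family regulator of growth cones, rose in BT-549 from 6.12 to 42.5 CPM (2.80, SE 0.16, edgeR adjusted p = 3.7e-06). In SUM149 DPYSL3 was at 0, 0 and 6.39 CPM with CshRNA and at 0.708, 0.111 and 0.675 CPM with MUC1shRNA, so CshRNA 3 alone set its control mean, and the difference did not pass (-2.03, SE 1.43, edgeR adjusted p = 0.24). Its relative DPYSL2 fell in SUM149 from 298 to 127 CPM (-1.22, SE 0.08, edgeR adjusted p = 4.7e-08) and was at 704 and 712 CPM in BT-549. INA rose in SUM149 (0.80, SE 0.08, edgeR adjusted p = 3.7e-06) while its lower level in BT-549 (-0.40, SE 0.11, edgeR adjusted p = 0.017) was a call that was lost with the replicate block and without BT-549 CshRNA 1 or CshRNA 2. DPYSL4 fell in BT-549 from 27.4 to 12.2 CPM. MAP1A passed in neither line, with log2 differences of 0.16 and 0.23. The axonal tau gene MAPT fell in SUM149 from 1.40 to 0.429 CPM (log2 difference -1.66, edgeR adjusted p = 0.014), and without MUC1shRNA 2 the difference was -1.49 and not past the threshold. MAP4, the MAP of most non-neuronal cells, rose by 0.20 in SUM149 (edgeR adjusted p = 0.024), a call lost without CshRNA 2, CshRNA 3 or MUC1shRNA 2.

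Around NBEA, the list of BEACH proteins and protein kinase A anchors had 22 of 24 genes tested in BT-549, with 7 that rose, 3 that fell and a median of 0.03, and 23 tested in SUM149, with 7 that rose, 4 that fell and a median of -0.03. LRBA, the closest relative of NBEA, rose in BT-549 from 27.2 to 50.7 CPM (log2 difference 0.89, SE 0.09, edgeR adjusted p = 1.4e-04), without passing in SUM149 (-0.10, SE 0.08, edgeR adjusted p = 0.32). The interaction test gave a difference between the lines of 1.01 (SE 0.14, edgeR adjusted p = 3.6e-05). LYST, the BEACH protein of lysosome-related organelles, rose in BT-549 (0.51, SE 0.09, edgeR adjusted p = 0.0021) and fell in SUM149 (-0.24, SE 0.08, edgeR adjusted p = 0.025), where the call was lost without CshRNA 1, MUC1shRNA 2 or MUC1shRNA 3. NBEAL1 rose in BT-549 (0.66, SE 0.11, edgeR adjusted p = 0.0021) and NBEAL2 in SUM149 (0.55, SE 0.08, edgeR adjusted p = 5.8e-05). NBEAL1 in SUM149, at 0.26 (edgeR adjusted p = 0.042), lost its call without any 1 SUM149 library other than MUC1shRNA 2. AKAP12, which anchors protein kinase A at the plasma membrane, rose in SUM149 from 35.5 to 293 CPM (3.06, SE 0.09, edgeR adjusted p = 5.7e-11). In BT-549 it was at 3.79 and 4.28 CPM (0.15, SE 0.39, edgeR adjusted p = 0.80), but passed at 0.87 without CshRNA 3 (edgeR adjusted p = 0.0267). The regulatory subunit PRKAR2A rose in SUM149 from 97.2 to 228 CPM (1.24, SE 0.06, edgeR adjusted p = 3.6e-09).

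Around ADGRL3, the list of latrophilins, their ligands and synapse organizers had 15 of 31 genes tested in BT-549, with 3 that rose, 6 that fell and a median of 0.05, and 16 tested in SUM149, with 2 that rose, 6 that fell and a median of -0.30. ADGRL2, another latrophilin, was at 235 and 228 CPM in BT-549 (log2 difference -0.05, edgeR adjusted p = 0.47) and fell in SUM149 from 70.1 to 39.5 CPM (-0.82, SE 0.08, edgeR adjusted p = 1.1e-06). ADGRL1 was at 46.1 and 49.6 CPM in BT-549, and its fall in SUM149 (-0.27, SE 0.11, edgeR adjusted p = 0.046) was lost without any 1 SUM149 library other than CshRNA 2. ADGRL4 had 0 counts. Of the ligands of ADGRL3, FLRT2 passed in neither line, at 69.7 and 73.3 CPM in BT-549, while FLRT3 rose in SUM149 from 8.37 to 24.5 CPM (1.56, SE 0.11, edgeR adjusted p = 9.0e-08). UNC5B, a netrin receptor that also binds FLRT proteins, fell in SUM149 from 12.9 to 1.87 CPM (-2.79, SE 0.21, edgeR adjusted p = 2.0e-07). SLITRK6 rose in BT-549 from 0.445 to 3.28 CPM (2.87, SE 0.26, edgeR adjusted p = 4.4e-05) and fell in SUM149 from 11.3 to 6.59 CPM (-0.77, SE 0.17, edgeR adjusted p = 0.0019).

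Around NEGR1, few genes of the IgLON and immunoglobulin adhesion list were expressed, with 7 of 21 tested in BT-549 (2 rose, 1 fell, median 0.42) and 6 in SUM149 (2 rose, 2 fell, median -0.21). The other IgLON genes NTM and OPCML had 0 counts in all 12 libraries, and LSAMP was too low to be tested. CNTN4 rose in BT-549 to 21.5 CPM (log2 difference 0.84, SE 0.08, edgeR adjusted p = 9.0e-05), and L1CAM, an adhesion protein of axons, fell there from 7.47 to 1.93 CPM (-1.94, SE 0.28, edgeR adjusted p = 7.6e-04). NRCAM, of the L1 family, rose in SUM149 from 5.59 to 22.0 CPM (1.99, SE 0.12, edgeR adjusted p = 1.5e-08), and CNTN3 fell there from 21.7 to 11.1 CPM (-0.96, SE 0.10, edgeR adjusted p = 5.0e-06).

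Around GABBR2, only 5 of 30 genes for GABA receptors and GABA handling were tested in BT-549 (1 rose, median 0.07) and 10 in SUM149 (4 rose, 1 fell, median -0.01). The single BT-549 call became 0 without MUC1shRNA 3 and 2 without any 1 CshRNA library. GABBR1, the partner without which GABBR2 forms no receptor for GABA, was at means of 0.605 and 0.382 CPM in the BT-549 groups and too low to be tested there. In SUM149, where GABBR2 had 0 counts, GABBR1 fell from 5.33 to 2.40 CPM (log2 difference -1.13, SE 0.20, edgeR adjusted p = 2.8e-04). The 2 subunits of the receptor were thus above 2 CPM in different lines, GABBR1 only just so in silenced SUM149 cells. Of its exon bases, 8.52% are shared with UBD on the same strand and 8.52% lie opposite OR2I1P. KCTD12, an auxiliary subunit of the GABA-B receptor, passed in neither line, at 69.5 and 72.8 CPM in BT-549 and 46.4 and 45.7 CPM in SUM149. GABRA2, a subunit of the ion-channel type of GABA receptor, rose in SUM149 from 29.4 to 56.6 CPM (0.95, SE 0.10, edgeR adjusted p = 2.2e-06).

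Around SORT1, the list of sortilin family, neurotrophin and retrograde sorting genes had 20 of 25 tested in BT-549 (6 rose, 4 fell, median 0.08) and 16 in SUM149 (6 rose, 4 fell, median -0.02). SORL1, another VPS10-domain sorting receptor, was at 0.112, 0 and 0.365 CPM in BT-549 CshRNA libraries and at 5.87, 6.02 and 5.35 CPM with MUC1shRNA. It rose there by 5.00 on the log2 scale (SE 0.39, edgeR adjusted p = 2.1e-05). In SUM149 SORL1 was at 0.537, 0.615 and 11.6 CPM with CshRNA and at 0.944, 0.446 and 1.25 CPM with MUC1shRNA, so the direction of its means (-2.21, SE 1.02, edgeR adjusted p = 0.081) came from CshRNA 3. SORCS3 rose in BT-549 from 0.921 to 2.95 CPM (1.70, SE 0.24, edgeR adjusted p = 7.2e-04). SORCS2 fell in SUM149 from 6.61 to 2.71 CPM (-1.27, SE 0.20, edgeR adjusted p = 1.4e-04). Of the ligands and partners of sortilin, GRN, which encodes progranulin, rose in SUM149 from 74.0 to 108 CPM (0.56, SE 0.09, edgeR adjusted p = 1.4e-04), without passing in BT-549 (0.11, edgeR adjusted p = 0.24). NGFR, a neurotrophin receptor that pairs with sortilin, was at 1.38 and 1.17 CPM in BT-549 and did not pass.

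Around SCG2 and GAL, the list of neuropeptides, granins and dense-core granule proteins had 8 of 33 genes tested in BT-549 (3 rose, median 0.07) and 11 in SUM149 (4 rose, 4 fell, median -0.25). Among the other granins, CHGB rose in SUM149 from 6.18 to 14.9 CPM (log2 difference 1.28, SE 0.13, edgeR adjusted p = 3.0e-06), without passing in BT-549 (-0.22, edgeR adjusted p = 0.31). VGF rose by 0.37 in SUM149 (SE 0.10, edgeR adjusted p = 0.0047) and was at 96.5 and 99.9 CPM in BT-549. CHGA had 0 counts. SCG5, the chaperone of prohormone convertase 2, was at 0.498, 0.520 and 0.456 CPM in SUM149 CshRNA libraries and at 8.14, 4.90 and 7.13 CPM with MUC1shRNA (3.76, SE 0.27, edgeR adjusted p = 9.5e-08), and had 0 counts in BT-549. Of the enzymes that process such precursors, 2 fell in SUM149. PCSK1, which cleaves prohormones, fell from 62.8 to 13.5 CPM (-2.20, SE 0.09, edgeR adjusted p = 1.1e-09), and CPE, which trims the cut ends, from 63.7 to 23.7 CPM (-1.42, SE 0.09, edgeR adjusted p = 3.1e-08). PAM, which amidates many peptide hormones, rose in BT-549 from 221 to 333 CPM (0.59, SE 0.08, edgeR adjusted p = 4.4e-04) and in SUM149 from 48.4 to 113 CPM (1.23, SE 0.07, edgeR adjusted p = 6.3e-09). The galanin receptors GALR1, GALR2 and GALR3 were too low to be tested in either line. CCK, another neuropeptide, rose in BT-549 from 0.663 to 3.49 CPM (2.38, SE 0.25, edgeR adjusted p = 1.4e-04), though 33.2% of its exon bases lie opposite another gene.

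**Figure D4:**
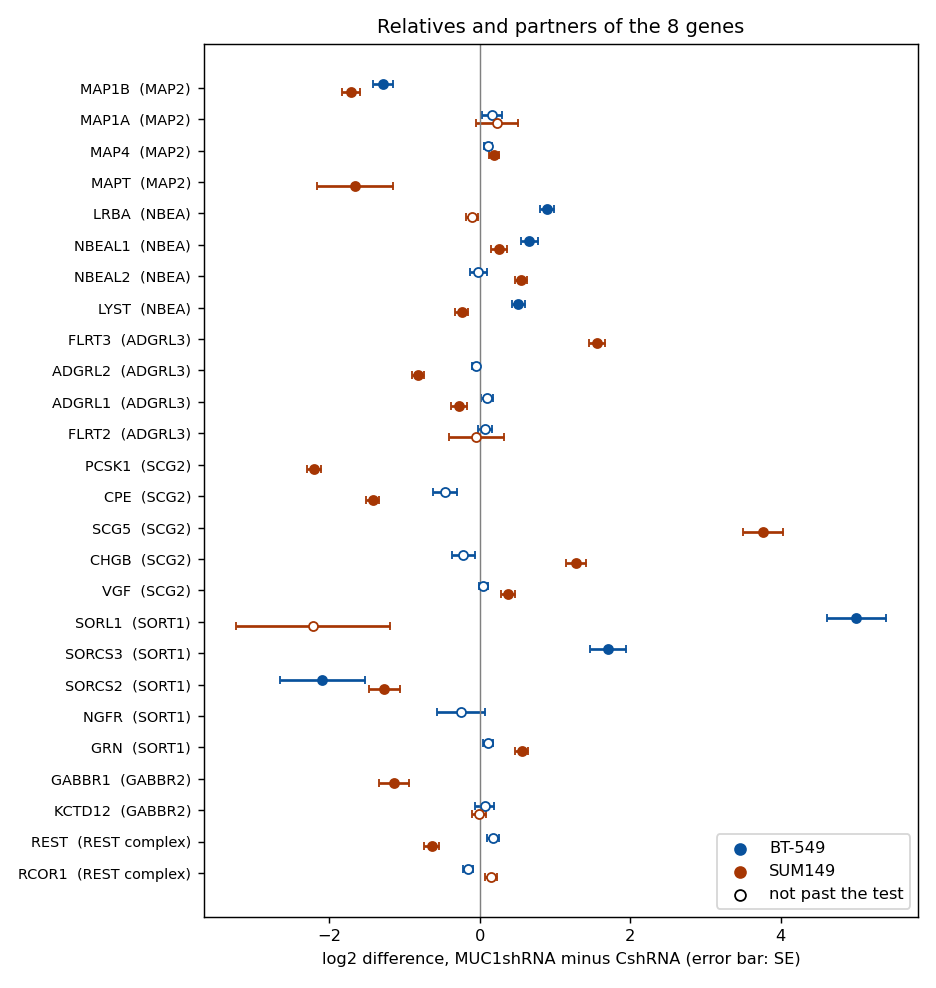
Log2 difference between MUC1shRNA and CshRNA (horizontal axis, error bars of 1 SE) in BT-549 and SUM149 for relatives and partners of the 8 genes, with the gene each belongs to in brackets and open circles for differences not past edgeR's test. SORL1 in BT-549 lies farthest to the right, at 5.00, and its open SUM149 circle at -2.21 has a wide error bar.

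REST, the repressor of neuronal genes, fell in SUM149 from 50.1 to 31.9 CPM (log2 difference -0.64, SE 0.10, edgeR adjusted p = 9.9e-05). In BT-549 it was at 68.4 and 77.4 CPM (0.18, SE 0.08, edgeR adjusted p = 0.11), and it passed there without MUC1shRNA 2, at 0.23. The responses differed by 0.83 (SE 0.14, edgeR adjusted p = 2.2e-04). Of the list of REST and its corepressors, 18 of 19 genes were tested in BT-549 (4 rose, 3 fell, median -0.03) and 19 in SUM149 (3 rose, 9 fell, median -0.17). The 7 calls in BT-549 became 3 without MUC1shRNA 1, without CshRNA 1 or with the replicate block, and 4 without MUC1shRNA 3. The corepressor RCOR1 passed in neither line, and RCOR2 fell in SUM149 from 7.77 to 2.30 CPM (-1.74, SE 0.19, edgeR adjusted p = 4.7e-06). PHF21A, a histone reader of the same complex, rose in BT-549 by 0.30 (SE 0.07, edgeR adjusted p = 0.0091) and fell in SUM149 by 1.07 on the log2 scale (SE 0.08, edgeR adjusted p = 1.3e-07).

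The remaining lists held synaptic genes and transcription factors of neurogenesis. Of 30 presynaptic genes, 24 were tested in BT-549 (2 rose, 6 fell, median -0.09) and 19 in SUM149 (7 rose, 4 fell, median 0.06). The 8 calls in BT-549 became 4 without MUC1shRNA 1 or with DESeq2, 5 without CshRNA 1 or with the replicate block, and 3 at the stricter filter of 5 CPM, which left 4 of the 11 in SUM149. SNAP25, a SNARE protein of vesicle fusion, rose in SUM149 from 0.763 to 4.95 CPM (log2 difference 2.71, SE 0.30, edgeR adjusted p = 6.1e-06) and was at 8.34 and 8.23 CPM in BT-549. Of 37 postsynaptic genes, 16 were tested in BT-549 (3 rose, 4 fell, median -0.16) and 17 in SUM149 (4 rose, 6 fell, median -0.02). GRIN2A, an NMDA receptor subunit, rose in BT-549 from 9.20 to 22.2 CPM (1.28, SE 0.11, edgeR adjusted p = 3.2e-05). CAMK2D rose in BT-549 by 0.52 (edgeR adjusted p = 1.4e-04) and fell in SUM149 by 0.90 on the log2 scale (edgeR adjusted p = 2.9e-06). Of 18 neurogenic transcription factors, 4 were tested in each line, with 2 that rose and 1 that fell in BT-549 (median 0.26) and 3 that rose in SUM149 (median 0.84). SOX11 rose in BT-549 from 2.45 to 10.5 CPM (2.10, SE 0.15, edgeR adjusted p = 1.0e-05). ZEB2, which also drives mesenchymal programmes, fell in BT-549 from 54.7 to 29.6 CPM (-0.89, SE 0.07, edgeR adjusted p = 3.1e-05) and rose in SUM149 from 1.01 to 3.17 CPM (1.66, SE 0.26, edgeR adjusted p = 1.1e-04).

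Finally, the protein-coding genes whose levels ran most like each of the 8 were found among 12041 genes by Pearson's r of log2 CPM over the 12 libraries. The libraries fall into 4 groups of 3, so r reflects mostly 4 group means and is a description. GABBR2 was most like THY1 (r = 0.999), a GPI-anchored surface protein of neurons and fibroblasts, at 655 and 222 CPM in BT-549 control and silenced cells and at 0.0128 and 0 CPM in SUM149. SCG2 was most like TGFBI (r = 0.991), an extracellular matrix protein, at 217 and 333 CPM in BT-549 and 50.5 and 244 CPM in SUM149. Next for SCG2 was HAS2 (r = 0.986), the hyaluronan synthase, at 14.8 and 35.8 CPM in BT-549 and 3.67 and 24.0 CPM in SUM149. SORT1 was most like MECOM (r = 0.988) and HS3ST3A1 (r = 0.981). NBEA was most like DNER (r = 0.980), a Notch-binding protein of neurons, at 26.8 and 54.1 CPM in BT-549 and 64.1 and 49.2 CPM in SUM149. MAP2 was most like BCKDHB and YPEL5 (r = 0.979 for each), NEGR1 like CMIP (r = 0.978), ADGRL3 like MANBA (r = 0.979) and GAL like SCARB1 (r = 0.968). Among the 8 themselves, the highest r was 0.865, between ADGRL3 and MAP2, and the lowest was -0.939, between ADGRL3 and GAL.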

How the data were processed

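RNA sequencing of 12 human cell line libraries was analysed from 1 table of raw read counts that the authors deposited, per the file headers 1 column per library and 1 Ensembl identifier per line. Per the labels' protocols, Trizol RNA went into TruSeq Stranded mRNA libraries. STAR 2.7.0, DESeq2 1.24.0, CASAVA 1.8.2 and GRCh38.p7 appear in the submitters' processing notes without a role. How reads were counted, on which strand and against which annotation was not given in the sources used here. Symbols and positions came from GENCODE release 29, which matched 57433 of 58037 identifiers, and 45 second copies of pseudoautosomal genes were left out. By it, 29.3% of the exon bases of M6PR lie opposite another gene, 27.7% of POU4F1, 22.3% of NGFR, 17.9% of STX1A and 8.95% of LRBA. HOMER3 shares 12.3% with a gene on its own strand. Not all smaller overlaps are given here.

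In R 4.3.3, edgeR 4.0.16 fitted each line alone (TMM, filterByExpr defaults, quasi-likelihood test, no covariates), and all 12 libraries together for differences between lines. Calls used Benjamini-Hochberg adjusted p below 0.05 over all tested genes. Log2 differences are MUC1shRNA minus CshRNA. CPM were computed here on TMM-scaled totals over 12 libraries, so a ratio of mean CPM can differ slightly from a fitted fold. Replicate columns differed beyond sampling noise, with a chi-square per degree of freedom of 1.85 to 14.5, and none was a copy. The fits were tested on simulated data. The 8 genes and the lists were chosen with earlier results of these data known.

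Genes were named by rule: MUC1, the 8 genes, up to 3 genes per list and line with the smallest adjusted p among those called and reaching 2 CPM on average in 1 group, 36 relatives and partners of the 8 in any case, and the 2 genes most like each of the 8 (prior count 2). Not every gene named by it is reported here. Alternatives were RLE and upper-quartile scaling, no filter, 5 CPM in 3 libraries, DESeq2 1.42.0, limma-voom (limma 3.58.1), a single fit of 12 libraries, a block by title number and leaving out each library. Leaving out both BT-549 libraries that stood apart was added after seeing the data.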

Additional observations from a re-analysis of the deposited data

Results flagged for a closer look

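The responses of 2 of the 8 genes to MUC1 silencing lay on opposite sides in the lines, with no overlap of groups in either line. The log2 response in BT-549 minus that in SUM149 was 4.19 for MAP2 and 4.97 for NBEA. These genes were picked from the same comparisons, so the fitted difference is a description and was not tested independently.

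For list genes the difference of responses (BT-549 minus SUM149, log2) was fitted by edgeR's interaction over 12 libraries, where 39.6% of 15649 genes passed. It was fitted for 72 named list genes. Many of them were named for a small adjusted p within a line, and the rest as relatives or partners. The interaction is made from those same comparisons, so passing it is given as a description. Those listed here passed. Around MAP2 these were DPYSL3 (4.82), DPYSL2 (1.25) and INA (-1.19). Around NEGR1 they were L1CAM (-1.76) and NRCAM (-4.18). Around ADGRL3 they were SLITRK6 (3.65), UNC5B (2.85), ADGRL2 (0.79) and ADGRL1 (0.39). Around NBEA they were LRBA (1.01), LYST (0.77), NBEAL1 (0.42), NBEAL2 (-0.55), AKAP8 (-0.74), AKAP12 (-2.90) and PRKAR2A (-1.24). Around GABBR2 they were GABRA2 (3.83) and GPHN (-0.50).

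In the granule list the differences were 2.77 for PCSK1, 0.97 for CPE, -0.63 for PAM and -1.48 for CHGB. In the sortilin list they were 7.23 for SORL1, 0.61 for SNX2, -0.50 for M6PR, -0.77 for GGA2 and -0.43 for GRN. In the REST list they were 0.83 for REST, -0.34 for SIN3B, 0.44 for HDAC2, 1.39 for PHF21A and -0.71 for CTDSPL. Among synaptic genes they were -0.80 for STX1A, -2.71 for SNAP25, -2.19 for BSN, 1.44 for CAMK2D, -0.90 for HOMER3, 1.08 for HOMER2 and -0.58 for DLG3. Among neurogenic factors they were 4.81 for SOX11, -2.54 for ZEB2 and -0.50 for POU4F1.

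Of 20 alternatives, the call was lost in 16 for POU4F1, 14 for ADGRL1, 11 each for NBEAL1 and SIN3B, and 10 for PCSK1, in each case also with the replicate block. Several results rest on few counts in 1 line or on 1 library. In the BT-549 groups GABRA2 had 1 and 37 counts, NRCAM 25 and 5, and PCSK1 4 and 6, and in the SUM149 groups SOX11 had 19 and 1. The difference for SORL1 ran from 4.36 to 8.62 with 1 library left out, and its SUM149 control mean was set by CshRNA 3. The interaction of DPYSL3 was not past the threshold without SUM149 CshRNA 3 (edgeR adjusted p = 0.15), nor that of SOX11 (edgeR adjusted p = 0.55), nor that of NRCAM without BT-549 CshRNA 3 (edgeR adjusted p = 0.35).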

How the results depend on the processing

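For the 8 genes, all 204 values of the silencing comparisons kept their side of the threshold, and their direction except GAL in SUM149, uncalled throughout at -0.16 to 0.25. Of 152 values between the control groups, 147 kept their side; the others concerned ADGRL3 and NEGR1, and uncalled GAL changed sign (-0.40 to 0.02). The count of changed genes in BT-549 was 4398, 2716 to 4470 with 1 library left out (lowest without MUC1shRNA 1) and 2951 to 5325 under the other alternatives. In SUM149 it was 8017, with ranges of 6866 to 8306 and 6871 to 8464. The difference of responses was called for 6194 genes (5508 to 6420 and 5634 to 6378), and 12989 genes differed between controls (12771 to 13306 and 9950 to 14779). Of 300 list genes, 72 changed in BT-549 (56 to 75 and 52 to 88) and 96 in SUM149 (85 to 100 and 78 to 116). Of 1788 values for named list genes within a line, 1707 kept their call, 50 lost it, 31 gained one and no called one reversed. Some uncalled differences changed sign, such as DPYSL3 in SUM149, at -2.10 to 1.76 under alternatives other than leaving out 1 library. Among the named list genes the difference of responses reversed for 3 genes, and the cause was not tested. DPYSL3 ran from -3.24 to 5.47, NRCAM from -4.78 to 1.81 and SOX11 from -0.40 to 7.41 with 1 library left out. NRCAM was at 2.05 without both BT-549 libraries that stood apart.

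No pairing by title number was seen, which 3 libraries an arm cannot exclude. Deviations of same-numbered libraries correlated at 0.0379, -0.145 and -0.128 in BT-549 and at -0.0840, 0.0968 and 0.0863 in SUM149. The highest values were between different numbers, 0.189 for BT-549 CshRNA 3 with MUC1shRNA 2 and 0.169 for SUM149 CshRNA 1 with MUC1shRNA 2. With the replicate block, 2951 genes were called in BT-549, 7934 in SUM149 and 5634 for the difference of responses, and 58 and 100 list genes. The block could not be fitted between control groups of different lines. ADGRL3 and GABBR2 had too few counts in SUM149 for the silencing comparison. The silenced libraries of that line were the shallowest, and its control libraries were on average the deepest. The part of depth in these low counts was not tested. All p-values rest on 3 libraries a group.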
